A study of Mus musculus with 23 samples.

Results

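The 37 genes described here encode blood clotting factors, their inhibitors, proteins that dissolve clots, and components of complement, most of them made by hepatocytes. They were taken by symbol from the authors' table of RPKM (reads scaled for gene length and for the size of the library), on the condition that RPKM reached 0.5 in at least 5 libraries. All 37 symbols were among the 24475 genes of the table, and 37 of 37 met the condition. By role, 13 belong to clotting, 8 to inhibition of clotting and clot dissolution, and 16 to complement.

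Each library holds liver RNA of male C57BL/6J mice under 1 of 2 diets and 1 of 2 antibodies. Feeding with regular chow or with a high-fat diet (HFD) lasted 4 months, and every group received an antibody at 10 mg/kg over 3 weeks, so no group went without antibody. REGN1193 blocks the glucagon receptor, GCGR, and is called the GCGR antibody. REGN496 is the only other antibody named, so it was read as the isotype control that the series mentions without a code. Libraries go by the number in their title: 1 to 5 are chow with control antibody (n = 5), 6 to 11 chow with GCGR antibody (n = 6), 12 to 17 HFD with control antibody (n = 6), and 18 to 23 HFD with GCGR antibody (n = 6). The labels do not say whether each came from its own mouse, so p-values measure only the spread between these samples, which may be technical.

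Clotting runs through a chain of serine proteases that hepatocytes secrete as inactive precursors and that ends with thrombin. Thrombin cuts fibrinogen, a protein of alpha, beta and gamma chains, into fibrin, which factor XIII crosslinks and plasmin later dissolves. Complement is a related chain of plasma proteases: the C1 proteases or the mannose-binding lectins start it, C3 is its centre, and C5 to C9 assemble into the membrane attack complex. Fibrinogen and several complement proteins also belong to the acute-phase response, in which interleukin-6 acts on hepatocytes. Glucagon acts on hepatocytes through GCGR, best known for raising glucose output and amino acid breakdown.

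RPKM summed to between 594026 and 692295 per library, and relative depth ranged from 0.867 to 1.14 around the typical library, judged from the steps in low values. Total read numbers are not used here. The 6 measured hepatocyte markers, among them Alb, summed to between 44427 and 61688 RPKM. Libraries 19 and 20, both HFD with GCGR antibody, stood apart: their mean correlations with their own group were 0.980 and 0.979, the lowest of all 23. Library 19 was the lowest of its 6 in 30 of the 37 genes, against 29.0% of all 11939 genes tested. It also had the highest summed T/NK cell markers (17.6 RPKM) and stellate cell markers (180 RPKM), and library 20 followed with 11.3 and 155 RPKM. Most changes of named genes in comparisons with this group are therefore also given without these libraries. Levels, ranges and ratios are over all libraries unless stated.

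The sequences upstream of the genes that the results turn on are shown first, since the fibrinogen genes, C8b and C1ra moved in different ways. RefSeq windows of build GRCm38.p6 matched 29 of the 37 genes, each holding 250 bases before and 50 after the start. There was no window for C2, C4b, Cfb, Cfi, Kng1, Masp1, Plg and Proc. The 250 bases before the start are printed 5′ to 3′ on the gene's strand, with capitals for matches to the motifs named below.
Fga, chr3:83025903-83026152, plus strand: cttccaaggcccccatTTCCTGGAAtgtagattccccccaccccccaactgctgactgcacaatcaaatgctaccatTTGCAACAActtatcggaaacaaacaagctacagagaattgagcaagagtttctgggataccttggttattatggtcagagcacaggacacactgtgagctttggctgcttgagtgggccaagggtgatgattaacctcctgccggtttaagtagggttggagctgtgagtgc
Fgb, chr3:83049864-83050113, minus strand: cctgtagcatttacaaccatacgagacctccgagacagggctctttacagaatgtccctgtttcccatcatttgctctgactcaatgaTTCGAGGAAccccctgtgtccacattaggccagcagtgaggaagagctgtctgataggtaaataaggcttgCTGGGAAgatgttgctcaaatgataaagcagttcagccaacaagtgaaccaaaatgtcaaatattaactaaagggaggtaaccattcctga
Fgg, chr3:83007474-83007723, plus strand: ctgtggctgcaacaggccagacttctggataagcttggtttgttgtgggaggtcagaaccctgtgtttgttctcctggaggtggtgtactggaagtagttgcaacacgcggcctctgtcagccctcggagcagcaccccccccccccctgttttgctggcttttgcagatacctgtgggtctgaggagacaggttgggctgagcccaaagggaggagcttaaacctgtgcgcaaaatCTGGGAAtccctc
C1ra, chr6:124512371-124512620, plus strand: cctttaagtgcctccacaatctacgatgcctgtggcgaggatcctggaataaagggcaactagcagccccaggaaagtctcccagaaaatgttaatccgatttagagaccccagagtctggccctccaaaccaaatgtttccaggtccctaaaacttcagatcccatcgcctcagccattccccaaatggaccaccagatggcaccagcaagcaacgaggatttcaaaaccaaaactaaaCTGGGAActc
C8b, chr4:104766067-104766316, plus strand: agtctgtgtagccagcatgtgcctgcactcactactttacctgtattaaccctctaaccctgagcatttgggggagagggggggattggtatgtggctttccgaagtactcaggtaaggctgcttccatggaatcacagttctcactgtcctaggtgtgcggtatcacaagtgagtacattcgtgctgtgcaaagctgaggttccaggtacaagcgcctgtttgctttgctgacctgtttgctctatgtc

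Motifs were searched on both strands of the whole windows. Capitals in Fga mark TTCNNNGAA, the letters that STAT3 is known to bind, and TTGCNNCAA, those of C/EBP proteins. Fgb holds TTCNNNGAA at bases -162 to -154 from the start and CTGGGAA, the type II interleukin-6 response element, at -91 to -85. Fgg and C1ra each hold CTGGGAA close to the start, at -13 to -7 and at -10 to -4. C1ra also holds TTCNNNGAA past the start, at bases 33 to 41, beyond the printed stretch. The C8b window holds none of the 9 motifs searched. Over the 29 genes, TTCNNNGAA occurred in 8 (27.6%) and CTGGGAA in 7 (24.1%), against 8.3% and 11.1% of all 32851 RefSeq windows. The matches of these 2 motifs overlap in F9, Masp2 and Vtn. TTGCNNCAA occurred in 2 genes (Fga and C6) and in 2.08% of all windows, TATAAA in 4 and 13.6%, the interferon-stimulated response element in 1 (Vtn) and 3.44%, and TGACGTCA (CRE) in 1 and 1.79%. CAAAGTCCA (HNF4) occurred in none and in 0.475% of all windows. The HNF1 motif and the FXR inverted repeat occurred in none, each against 0.00913% of all windows. Each of the 29 genes was counted by 1 window. The 32851 windows were not reduced to 1 per gene, so the shares rest on unlike units. A match describes letters in the window only.

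RPKM is scaled by gene length, so levels can be set side by side. In the chow control group the fibrinogen chains were the most abundant, with mean levels of 2385 RPKM for Fgb, 2349 for Fga and 1877 for Fgg. Below them came C3 (1645 RPKM), the adhesion protein vitronectin, Vtn (1395), the bradykinin precursor Kng1 (1246) and the thrombin inhibitor antithrombin, Serpinc1 (1097). The order of Fgb and Fga is not resolved, since their SDs were 230 and 212. The lowest levels were those of the protein C cofactor Pros1 (18.4 RPKM ± 2.97, SD, n = 5), F11 (27.9 ± 2.31) and Masp1 (29.0 ± 3.14). Together the 37 genes took 3.01% ± 0.278 of summed RPKM on chow with control antibody (SD, n = 5), 2.75% ± 0.209 on chow with GCGR antibody, 2.37% ± 0.181 on HFD with control antibody and 2.40% ± 0.314 on HFD with GCGR antibody (SD, n = 6 each). The median coefficient of variation of the 37 genes was 8.21%, 8.63%, 8.79% and 14.3% in the same order, and the highest was C8b in the last group (55.3%).

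HFD was set against chow within each antibody, which asks what the diet did to these transcripts. Under control antibody 16 of the 37 genes fell and 2 rose, and under GCGR antibody 10 fell and 2 rose. Genes count as called at a limma adjusted p under 0.05 over all 11939 genes. Over all genes tested, 18.3% were called lower and 11.6% higher under control antibody, and 16.6% and 13.2% under GCGR antibody. The median log2 change of the 37 genes was -0.20 under control antibody (all genes -0.03) and -0.09 under GCGR antibody (all genes -0.02). In whole liver RNA, fewer hepatocytes and less RNA per hepatocyte cannot be told apart. Of the hepatocyte markers, Ttr rose and Cps1, Apob and Hnf4a fell with HFD under control antibody. Of the 5 red blood cell markers 1 rose (Hbb-bt) and 3 had an unadjusted p under 0.05; their sum ranged from 516 to 1148 RPKM on chow and from 1287 to 2542 on HFD, without overlap. The part of these markers in the results was not tested.

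**Figure D1:**
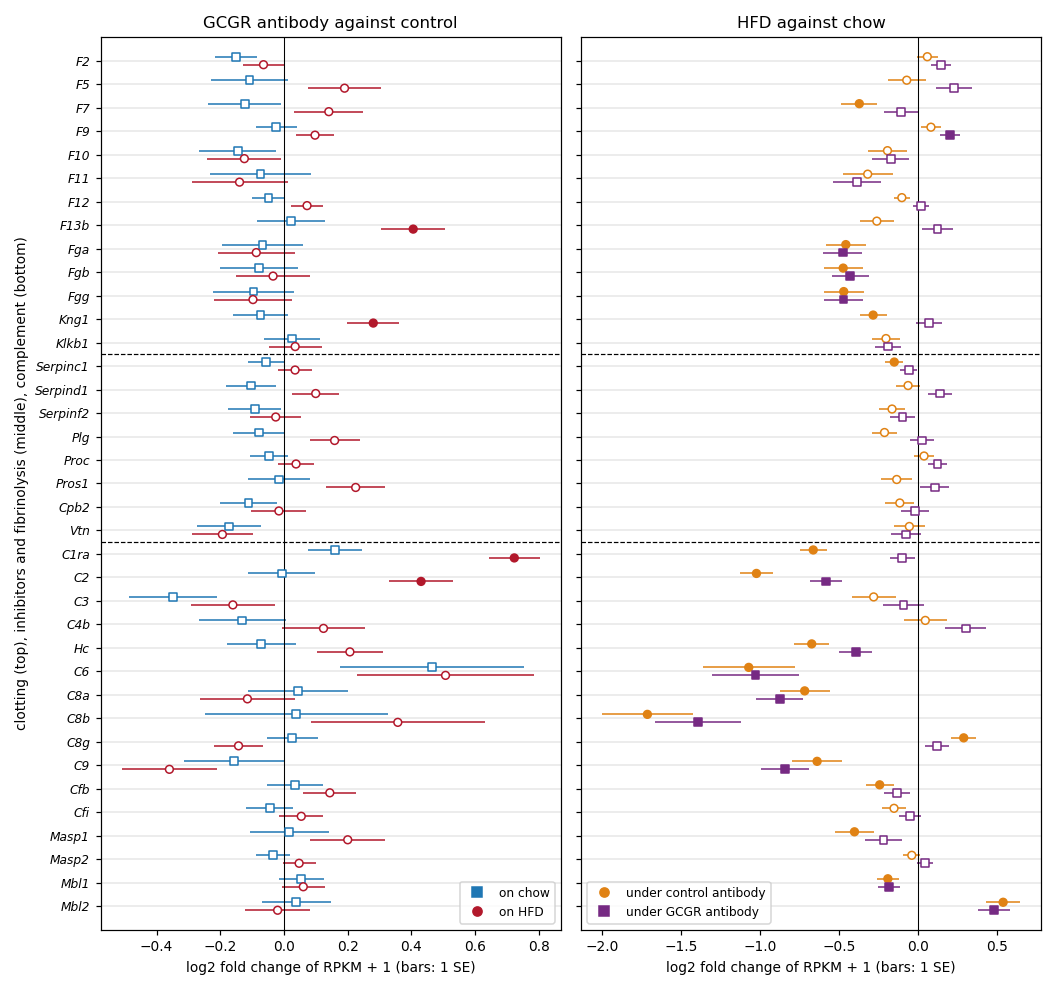
Log2 fold changes of RPKM + 1 (x axis, points with bars of 1 SE) for the 37 genes (y axis) in the antibody comparisons (left) and the diet comparisons (right), with filled symbols for adjusted p under 0.05. C8b, C6 and C2 lie farthest left in the diet panel under control antibody (-1.71, -1.07 and -1.02), and C1ra farthest right for the antibody on HFD (0.72).

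The fibrinogen chains fell together with HFD, under either antibody. The genes lie side by side on chromosome 3, Fgg at 83007724-83015056, Fga at 83026153-83033627 and Fgb at 83042246-83049863. Fga read 2315, 2139, 2639, 2484 and 2170 RPKM in the chow control libraries. On HFD with control antibody its lowest, median and highest values were 1359, 1700 and 2195 RPKM. Most HFD libraries lay below all chow controls, with 1 inside their range. On chow with GCGR antibody Fga spanned 1854, 2202 and 2887 RPKM (lowest, median, highest), and its HFD counterpart 1174, 1665 and 1862. The lowest of these was library 19, and the ranges of these groups touched only at 1 library each. The log2 change of Fga with HFD was -0.46 ± 0.13 (SE) under control antibody (adjusted p = 0.0100) and -0.48 ± 0.12 under GCGR antibody (adjusted p = 0.00530).

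Fgb read 2299, 2131, 2654, 2600 and 2239 RPKM in the chow controls and 1395, 1678 and 2149 (lowest, median, highest) on HFD with control antibody. Under GCGR antibody Fgb spanned 1862, 2278 and 2798 RPKM on chow, against 1240, 1751 and 1928 on HFD. In each diet comparison only 1 HFD library reached the chow range. Its log2 change was -0.47 ± 0.12 under control antibody (adjusted p = 0.00612) and -0.43 ± 0.12 under GCGR antibody (adjusted p = 0.00802). Fgg read 1949, 1690, 2049, 1984 and 1712 RPKM in the chow controls and 1053, 1334 and 1707 on HFD with control antibody. Its values with GCGR antibody were 1426, 1764 and 2203 RPKM on chow, against 923, 1333 and 1440 on HFD. As for Fga and Fgb, most HFD libraries were low and a single one reached the chow range in each comparison. Its log2 change was -0.47 ± 0.13 (adjusted p = 0.00816) and -0.47 ± 0.12 (adjusted p = 0.00557). Without libraries 19 and 20, the changes under GCGR antibody were -0.39, -0.32 and -0.38 for Fga, Fgb and Fgg, with adjusted p of 0.0207, 0.0447 and 0.0252.

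The chains kept close proportions while they fell. The ratio of Fgb to Fga averaged 1.01, 1.01, 1.004 and 1.04 in the chow control, chow GCGR antibody, HFD control and HFD GCGR antibody groups, with a range of 0.948 to 1.09 over all 23 libraries. The ratio of Fgg to Fga averaged 0.799, 0.783, 0.792 and 0.786, with a range of 0.763 to 0.842.

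**Figure D2:**
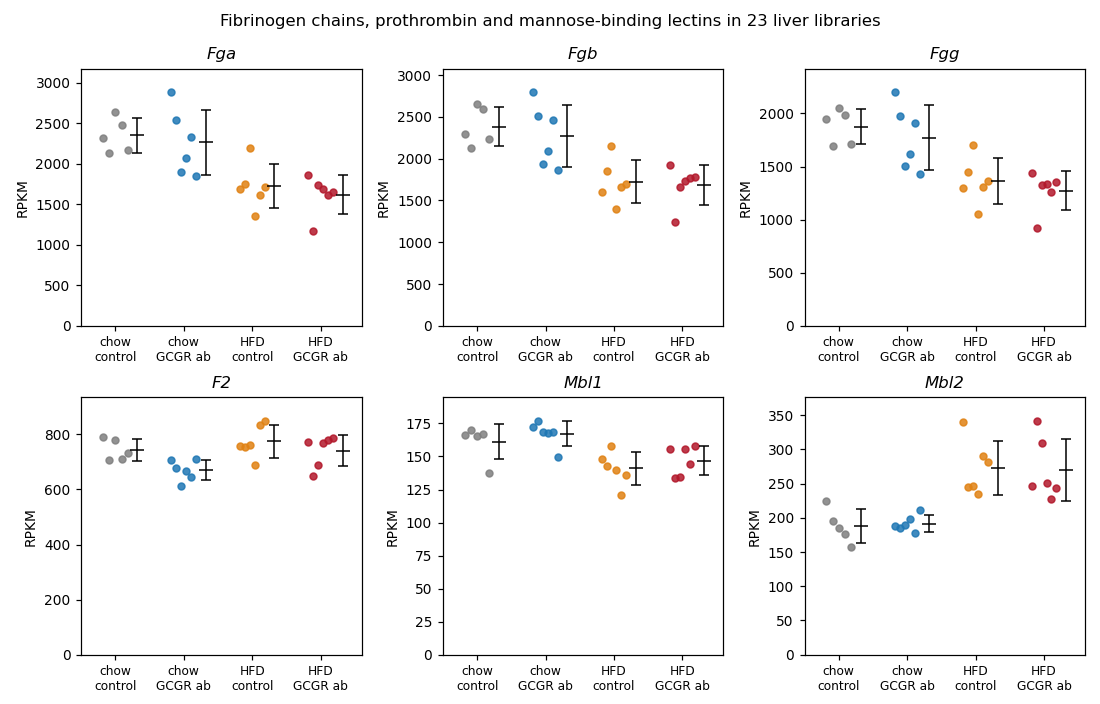
RPKM of the fibrinogen chains Fga, Fgb and Fgg, of prothrombin (F2) and of the mannose-binding lectins Mbl1 and Mbl2 (y axes) in the 4 groups (x axis), each point 1 library, with mean and SD beside it. The fibrinogen chains are lower on HFD, F2 is not called in any comparison, and the highest Mbl2 values (340 and 342 RPKM) are on HFD.

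Of the other clotting genes, F7 and Kng1 fell with HFD under control antibody. With the fibrinogen chains this made 5 of 13, where 18.3% of all genes tested were called lower. F7 starts the extrinsic pathway with tissue factor; it averaged 45.8 RPKM ± 2.22 (SD, n = 5) on chow and 35.5 ± 5.73 (n = 6) on HFD, a log2 change of -0.37 ± 0.11 (adjusted p = 0.0174, and 0.0519 after median-ratio scaling). The change of F7 under GCGR antibody was -0.11 ± 0.11 (adjusted p = 0.473), and 0.04 (adjusted p = 0.822) without libraries 19 and 20. F9, the factor missing in haemophilia B, rose under GCGR antibody, from 57.0 RPKM ± 2.66 to 65.9 ± 6.23 (n = 6 each), a log2 change of 0.20 ± 0.06 (adjusted p = 0.0164), or 0.22 (adjusted p = 0.0101) without those libraries. Under control antibody the change of F9 was 0.08 ± 0.06 (adjusted p = 0.367). Of the 8 inhibitors and fibrinolysis genes only Serpinc1 was called, lower on HFD under control antibody by a log2 change of -0.15 ± 0.06 (adjusted p = 0.0451), and 12 of its 19 alternative analyses lost that call. Under GCGR antibody 0 of the 8 were called, and 1 (Proc) had an unadjusted p under 0.05.

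The terminal complement genes held some of the largest diet effects among the 37. Under control antibody, Hc (which encodes C5), C6, C8a, C8b and C9 fell and C8g rose, and none of the 6 overlapped between diets. Of the 37 genes, 10 did not overlap in that comparison, all of them complement genes, and 15.9% of all genes tested did not. Under GCGR antibody, the same 5 fell, and Hc, C8a, C8b, C9 and the lectin gene Mbl2 were the 5 genes without overlap (10.3% of all genes tested).

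C8b, on chromosome 4 at 104766317-104804548, encodes the C8 beta chain, which docks C8 onto C5b to C7. It read 141, 162, 174, 151 and 167 RPKM in the chow controls. On HFD with control antibody the lowest, median and highest values were 40.6, 45.2 and 67.0 RPKM. All 6 HFD libraries thus lay far below the lowest chow library. Under GCGR antibody C8b spanned 145, 166 and 182 RPKM on chow, against 26.1, 76.6 and 126 on HFD. These groups did not overlap either, but the HFD libraries were widely spread: libraries 19 and 20 read 26.8 and 26.1 RPKM, and the other 4 between 75.6 and 126. The log2 change with HFD was -1.71 ± 0.29 under control antibody (0.305 times, adjusted p = 0.000196) and -1.39 ± 0.27 under GCGR antibody (adjusted p = 0.000659). Without libraries 19 and 20 the change under GCGR antibody was -0.80 (adjusted p = 0.000197).

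C8a, the neighbour of C8b at a distance of 11.1 kb, encodes the C8 alpha chain, which enters the membrane. It read 222, 233, 250, 232 and 224 RPKM in the chow controls, and 116, 145 and 161 (lowest, median, highest) on HFD with control antibody. Under GCGR antibody the values were 217, 242 and 259 RPKM on chow, against 79.0, 148 and 175 on HFD. Neither diet comparison overlapped, and libraries 19 and 20 were again the lowest on HFD. The log2 change was -0.72 ± 0.16 (adjusted p = 0.00193) under control antibody and -0.88 ± 0.15 (adjusted p = 0.000172) under GCGR antibody, or -0.57 (adjusted p = 9.53e-05) without those 2 libraries.

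C8g encodes the gamma chain, a lipocalin that binds C8 alpha, and rose under control antibody. It spanned 299, 331 and 338 RPKM in the chow controls and 352, 401 and 427 on HFD with control antibody (lowest, median, highest), without overlap. The log2 change was 0.29 ± 0.08 (adjusted p = 0.0106) under control antibody and 0.12 ± 0.08 (adjusted p = 0.258) under GCGR antibody, or 0.16 (adjusted p = 0.106) without libraries 19 and 20. The ratio of C8g to C8b within a library averaged 2.06 ± 0.235 and 2.04 ± 0.134 in the chow groups (control and GCGR antibody), 8.43 ± 1.35 on HFD with control antibody and 7.02 ± 4.84 on HFD with GCGR antibody (SD). The last group averaged 4.02 ± 0.684 (SD, n = 4) without libraries 19 and 20, whose ratios were 14.98 and 11.03. All HFD libraries had ratios of at least 3.29, and all chow libraries of at most 2.35.

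**Figure D3:**
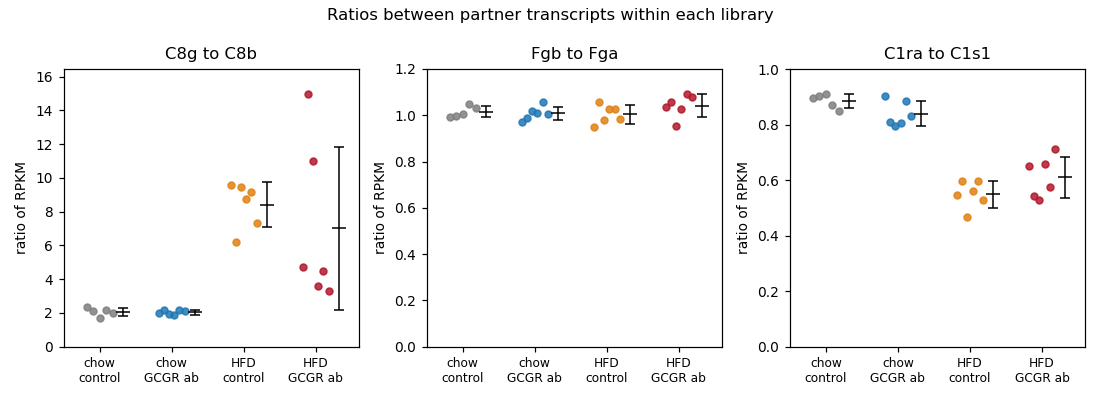
Ratio of RPKM (y axes) between genes whose products work together, C8g to C8b, Fgb to Fga and C1ra to C1s1, in the 4 groups (x axis), each point 1 library, with mean and SD beside it. The C8g to C8b ratio averages 2.06 in the chow controls and 8.43 on HFD with control antibody, while the Fgb to Fga ratio stays between 0.948 and 1.09 in the 23 libraries.

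Hc, on chromosome 2 at 34983329-35068506, read 223, 216, 287, 247 and 273 RPKM in the chow controls, and 144, 154 and 172 (lowest, median, highest) on HFD with control antibody. The range with GCGR antibody was 214, 230 and 265 RPKM on chow, against 120, 192 and 202 on HFD, where library 19 was the lowest by a wide gap. All HFD libraries were below all chow libraries under either antibody. The log2 change was -0.67 ± 0.11 (adjusted p = 0.000130) and -0.40 ± 0.10 (adjusted p = 0.00664), or -0.28 (adjusted p = 0.0155) under GCGR antibody without libraries 19 and 20.

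C9, whose copies line the membrane pore, read 236, 265, 300, 257 and 326 RPKM in the chow controls, and 161, 171 and 201 on HFD with control antibody. Under GCGR antibody C9 spanned 203, 241 and 326 RPKM on chow, against 79.5, 151 and 194 on HFD. Neither pair of groups overlapped. The log2 change was -0.64 ± 0.16 (adjusted p = 0.00445) and -0.84 ± 0.15 (adjusted p = 0.000263), or -0.61 (adjusted p = 0.000713) under GCGR antibody without libraries 19 and 20.

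C6, which joins C5b to begin the complex, averaged 101 RPKM ± 10.4 (SD, n = 5) in the chow controls and 49.0 ± 13.97 (n = 6) on HFD with control antibody, a log2 change of -1.07 ± 0.29 (adjusted p = 0.00837). With GCGR antibody it averaged 139 ± 13.1 on chow and 78.0 ± 42.1 on HFD (n = 6 each). The HFD values with GCGR antibody ran from 27.1 to 128 RPKM, with libraries 19 and 20 the lowest (27.1 and 38.5). The log2 change under GCGR antibody was -1.03 ± 0.28 (adjusted p = 0.00768), and -0.51 without libraries 19 and 20 (adjusted p = 0.0542), which did not pass. C7, the remaining component of the complex, stood at 0.647 RPKM ± 0.106 in the chow controls; it was named after its values were seen.

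**Figure D4:**
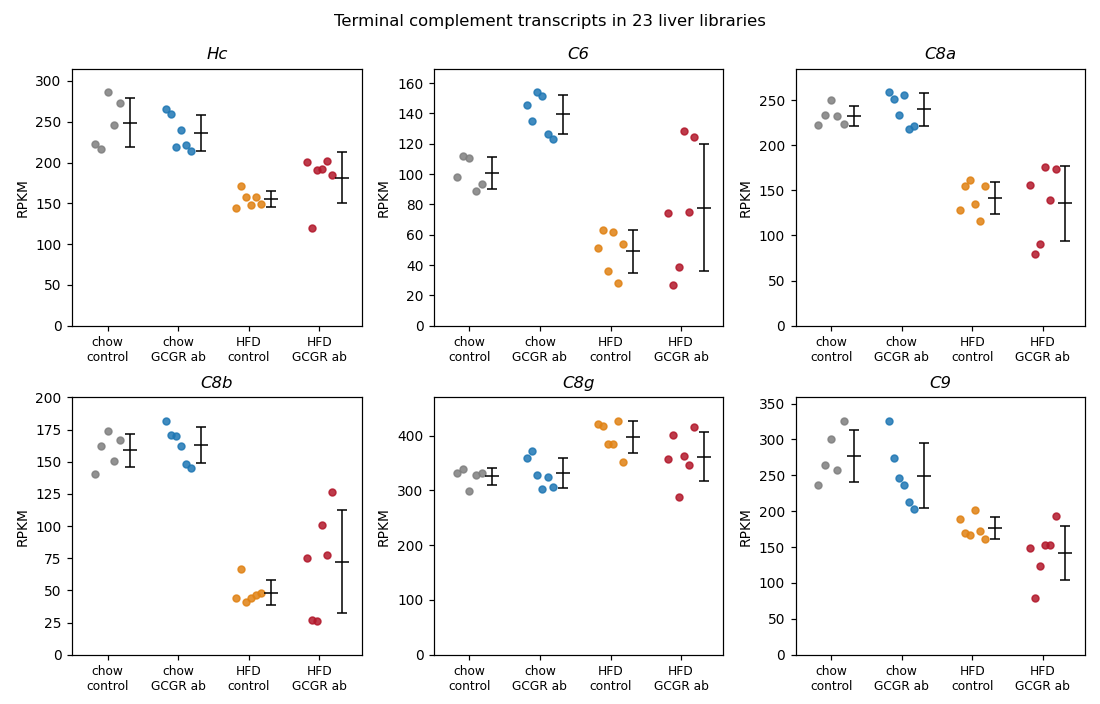
RPKM of the 6 terminal complement genes (y axes) in the 4 groups (x axis), each point 1 library, with mean and SD beside it. Hc, C6, C8a, C8b and C9 are lower on HFD and C8g is higher with control antibody, and on HFD with GCGR antibody C8b splits into 2 libraries near 26 RPKM and 4 at 75.6 or more.

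Among the genes that start or amplify complement, C2, C1ra, Cfb, Masp1 and Mbl1 fell with HFD under control antibody and Mbl2 rose. C2 is the serine protease of the classical and lectin C3 convertase, on chromosome 17 at 34862602-34882100, 88 bases from Cfb, which encodes its alternative-pathway counterpart, factor B. C2 read 48.3, 46.0, 48.7, 51.7 and 56.5 RPKM in the chow controls. On HFD with control antibody it spanned 20.2, 23.8 and 29.0 RPKM (lowest, median, highest). No HFD library came near the chow range. Treated with GCGR antibody, C2 spanned 41.4, 49.7 and 58.8 RPKM on chow, against 26.4, 33.2 and 41.6 on HFD, where 1 HFD library reached the lowest chow library. The log2 change was -1.02 ± 0.10 (0.492 times, adjusted p = 4.62e-07) under control antibody and -0.59 ± 0.10 (adjusted p = 0.000165) under GCGR antibody, or -0.48 (adjusted p = 0.00180) without libraries 19 and 20. The adjacent Cfb changed by -0.24 ± 0.09 (adjusted p = 0.0389) and -0.14 ± 0.08 (adjusted p = 0.228), and 10 of 19 alternative analyses lost the first call. Masp1, a lectin pathway protease, fell by 0.40 ± 0.12 on the log2 scale under control antibody (adjusted p = 0.0181, and 0.0527 without library 5). Its change under GCGR antibody was -0.22 ± 0.12 (adjusted p = 0.165). The changes of Cfb and Masp1 under GCGR antibody were -0.06 (adjusted p = 0.612) and -0.08 (adjusted p = 0.593) without libraries 19 and 20.

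The mannose-binding lectins, which recognise sugars on microbes, went opposite ways. Mbl2 read 224, 196, 185, 177 and 157 RPKM in the chow controls, and 235, 264 and 340 (lowest, median, highest) on HFD with control antibody. Under GCGR antibody Mbl2 spanned 178, 189 and 212 RPKM on chow, against 228, 248 and 342 on HFD. Every HFD library was above every chow library under either antibody. The log2 change was 0.54 ± 0.11 (adjusted p = 0.00102) and 0.48 ± 0.10 (adjusted p = 0.00147), or 0.34 (adjusted p = 0.0135) under GCGR antibody without libraries 19 and 20, which held the highest values there. Mbl1 changed by -0.19 ± 0.07 under each antibody (adjusted p = 0.0446 and 0.0420). Those calls were lost in 10 of 19 and 12 of 20 alternative analyses, among them the one without libraries 19 and 20 (adjusted p = 0.213 under GCGR antibody).

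Without libraries 19 and 20, genes called higher under GCGR antibody numbered 7 instead of 2: F2, F5, F9, Serpind1, Proc, C4b and Mbl2 (10.6% of all genes tested without them). With all libraries, 4 of the 7 stellate cell markers rose with HFD under GCGR antibody, and 0 rose without libraries 19 and 20. Their sum ranged from 83.6 to 89.6 RPKM on chow and from 77.6 to 180 on HFD. Of the 4 tested T/NK cell markers 2 rose, and 2 did so without libraries 19 and 20. With all libraries all 4 had an unadjusted p under 0.05. The sums of all 6 listed T/NK cell markers, tested or not, ran from 2.49 to 4.49 RPKM on chow and from 3.37 to 17.6 on HFD. Of the macrophage markers 4 of 11 fell with all libraries, and 0 fell without libraries 19 and 20. Their sums ran from 148 to 222 RPKM on chow and from 109 to 170 on HFD. No marker of these lists was at 0 in all 23 libraries. Their part in the diet results was not tested.

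The GCGR antibody was set against control antibody on chow, to ask what receptor blockade did in lean liver. No gene of the 37 was called (0 higher and 0 lower), while limma called 0.394% of all genes tested higher and 0.553% lower. F2 and C3 were the 2 genes with an unadjusted p under 0.05. The smallest adjusted p belonged to C3, the central complement protein, at 1645 RPKM ± 273 (SD, n = 5) with control and 1284 ± 135 (n = 6) with GCGR antibody, a log2 change of -0.35 ± 0.14 (adjusted p = 0.356). Prothrombin, F2, was next with a change of -0.15 ± 0.07 (adjusted p = 0.424), then C1ra with 0.16 ± 0.08 (adjusted p = 0.519). The median log2 change was -0.06 (all genes 0.03). The libraries did not overlap in 2 genes, C1ra and C6, both with higher values under GCGR antibody; 2.5% of all genes tested did not overlap. C6 ranged from 89.1 to 112 RPKM with control and from 123 to 154 with GCGR antibody. Its log2 change of 0.47 ± 0.29 did not pass in the fit of all 4 groups (adjusted p = 0.616), which share 1 estimate of the spread, and did in a fit of the chow groups alone (adjusted p = 0.0157).

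On HFD, where the same question concerns fatty-diet liver, the GCGR antibody raised 4 of the 37 genes, C1ra, C2, F13b and Kng1, and lowered none. Over all genes tested, 5.33% were called higher and 2.12% lower. The median log2 change of the 37 genes was 0.05, as over all genes (0.05). C9 was the 1 gene with a lower value at an unadjusted p under 0.05, and Pros1 joined the called genes among the 5 with a higher one. Libraries 12 to 17, HFD with control antibody, serve both here and in the diet comparison under control antibody, so a low value in those 6 libraries enters each with opposite sign.

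C1ra encodes a protease of the C1 complex, which cleaves the partner protease C1s; the gene lies on chromosome 6 at 124512621-124523440. It read 151, 143, 150, 151 and 156 RPKM in the chow controls. On HFD with control antibody it spanned 80.4, 97.2 and 101 RPKM (lowest, median, highest). All HFD controls thus lay below all chow controls. With GCGR antibody it spanned 159, 167 and 176 RPKM on chow, against 116, 168 and 179 on HFD, and the HFD groups with and without GCGR blockade did not overlap (2.85% of all genes tested did not). The lowest HFD libraries with GCGR antibody were libraries 19 and 20. The antibody effect on HFD was 0.72 ± 0.08 (1.65 times, adjusted p = 5.05e-06), and 0.85 (adjusted p = 1.34e-08) without libraries 19 and 20. The diet effect was -0.66 ± 0.08 under control antibody (adjusted p = 9.26e-06) and -0.10 ± 0.08 under GCGR antibody (adjusted p = 0.361), or 0.03 (adjusted p = 0.759) without those libraries.

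The neighbouring gene C1s1, 6.9 kb from C1ra, encodes C1s and is not among the 37. It averaged 173 RPKM ± 8.64 with control and 259 ± 26.5 with GCGR antibody on HFD (SD, n = 6 each), a log2 change of 0.58 ± 0.06 (adjusted p = 3.22e-06), or 0.62 (adjusted p = 6.51e-07) without libraries 19 and 20. With diet under control antibody C1s1 changed by 0.02 ± 0.07 (adjusted p = 0.816), so that the ratio of C1ra to C1s1 averaged 0.885, 0.838, 0.549 and 0.611 in the chow control, chow GCGR antibody, HFD control and HFD GCGR antibody groups. C1rb, a near copy of C1ra, was at or below 1.31 RPKM in every library. Reads of such copies can be shared in counting, so the split between them is uncertain.

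**Figure D5:**
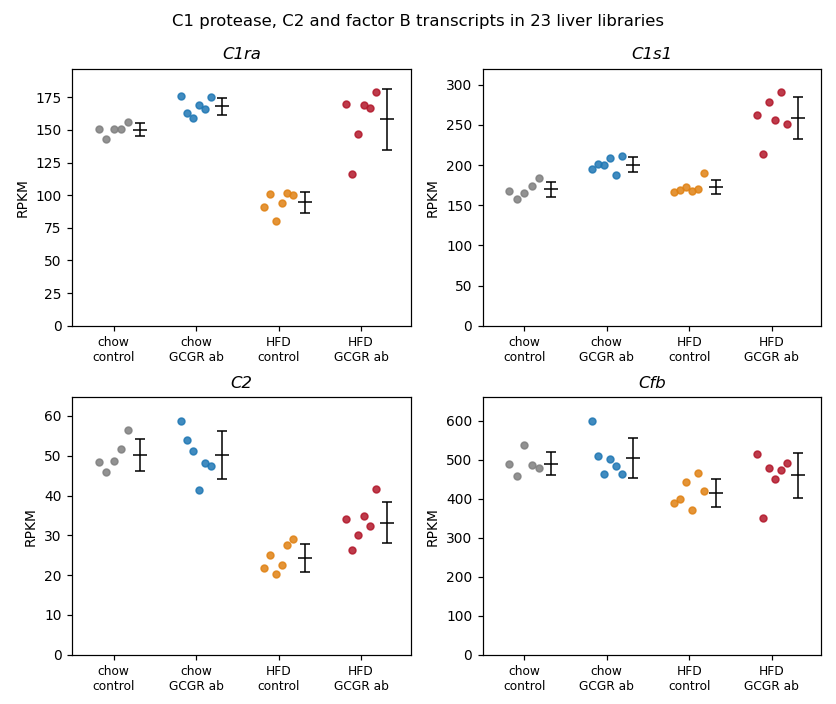
RPKM of C1ra, its partner C1s1, C2 and Cfb (y axes) in the 4 groups (x axis), each point 1 library, with mean and SD beside it. C1ra and C2 are low on HFD with control antibody (at most 101 and 29.0 RPKM), while C1s1 is high on HFD with GCGR antibody (at least 214 RPKM).

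C2 rose with the antibody on HFD by 0.43 ± 0.10 (1.35 times, adjusted p = 0.00995) while every HFD value lay under those of the chow controls. On HFD the treated and control ranges, given above, overlapped only by library 19. Without libraries 19 and 20, the lowest of the treated group, the change was 0.54 (adjusted p = 0.00163), which is no separate support.

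F13b, on chromosome 1 at 139501547-139523758, encodes the carrier subunit of factor XIII. It read 69.3, 58.8, 71.3, 68.6 and 74.7 RPKM in the chow controls and 50.01, 55.7 and 65.6 (lowest, median, highest) on HFD with control antibody. With GCGR antibody it spanned 58.0, 71.1 and 80.6 RPKM on chow, against 53.4, 79.9 and 83.4 on HFD. Library 19 was the lowest of the last group, and the other 5 read at least 79.4, above every HFD control. The antibody effect on HFD was 0.41 ± 0.10 (1.32 times, adjusted p = 0.0153), and 0.50 (adjusted p = 0.000895) without libraries 19 and 20. A fit of the HFD groups alone did not call it (adjusted p = 0.0615).

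Kng1, on chromosome 16 at 23058220-23082078, encodes kininogen, the cofactor of contact activation. It read 1314, 1214, 1492, 977 and 1234 RPKM in the chow controls and 939.9, 1018 and 1082 on HFD with control antibody. With GCGR antibody it spanned 1053, 1190 and 1250 RPKM on chow, against 1064, 1267 and 1360 on HFD. The HFD groups overlapped at library 20. The antibody effect on HFD was 0.28 ± 0.08 (1.21 times, adjusted p = 0.0385), lost in 12 of 20 alternative analyses. It was 0.36 (adjusted p = 0.00938) without libraries 19 and 20. These were the lowest of the treated group, so that value is no separate support. The diet effect under control antibody was -0.29 ± 0.09 (adjusted p = 0.0159), lost without library 3 or after median-ratio scaling. The near copy Kng2 averaged 155 RPKM ± 13.01 with control and 178 ± 9.73 with GCGR antibody on HFD, with a log2 change of 0.20 ± 0.07 (adjusted p = 0.0886, and 0.121 without libraries 19 and 20), so reads shared between the copies are uncertain.

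The count of genes raised by the antibody on HFD was larger without libraries 19 and 20. Without library 19 it was 11 of 37 (9.65% of all genes tested), adding C6, Cfb, F5, Hc, Masp1, Plg and Pros1. Without both libraries it was 10 (7.06% of all genes tested), among them C6, with a log2 change of 1.03 (adjusted p = 0.00149), and C8b, with 0.95 (adjusted p = 0.000103). With all libraries those genes changed by 0.51 ± 0.28 (adjusted p = 0.267) and 0.36 ± 0.27 (adjusted p = 0.442). Libraries 19 and 20 were singled out in these same data. They were the lowest of their group in C6 and C8b, and also in C1ra, C2 and Kng1. Library 19 was the lowest in F13b. Leaving both libraries out raises the group mean of these genes by construction, so the smaller p-values are no separate support. No gene of the 37 was called lower in either count. With all libraries, 3 of the 4 tested T/NK cell markers rose with the antibody on HFD, and 2 rose without libraries 19 and 20. The sums of all 6 listed T/NK cell markers ranged from 2.99 to 4.02 RPKM with control and from 3.37 to 17.6 with GCGR antibody. Of the 6 tested hepatocyte markers 1 was called lower (Alb), 0 were called higher, and 3 had a log2 change above 0. Without libraries 19 and 20, 2 were called lower and 0 higher. Hepatocyte marker sums were 52205 to 61688 RPKM with control and 44427 to 52531 with GCGR antibody. The part of these cells in the result was not tested.

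The difference of the antibody effects (HFD minus chow) is also the difference of the diet effects between antibodies. It was called for 1 of the 37 genes, C1ra, at 0.56 ± 0.12 on the log2 scale (adjusted p = 0.0439), and for none with a negative sign. Of all genes tested, 0.126% were called positive and 0.0754% negative. An unadjusted p under 0.05 was reached by 5 genes, all with positive differences: C1ra, C2 (0.44 ± 0.14, adjusted p = 0.279), F13b (0.38 ± 0.15, adjusted p = 0.368), Kng1 (0.35 ± 0.12, adjusted p = 0.286) and Plg (0.24 ± 0.11, adjusted p = 0.498). For C1ra the call was lost in 21 of 30 alternative analyses, with changes between 0.52 and 0.69 and adjusted p up to 0.120. Without libraries 19 and 20 it was 0.69 (adjusted p = 0.000300), and C8b was called as well, at 0.91 (adjusted p = 0.0186), 2 of 37 against 0.608% of all genes tested. The differences of C2, F13b and Kng1 were then 0.55, 0.48 and 0.43, with adjusted p of 0.0618, 0.0603 and 0.0743. Libraries 19 and 20 were the lowest of their group in C8b, C1ra, C2 and Kng1, and library 19 was the lowest in F13b. The smaller p-values of these genes without both libraries are therefore no separate support.

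No comparison called 17 of the 37 genes, against 20 called at least once. The share of all genes tested that were called at least once was not counted, so these counts have no baseline beside them. Of the clotting genes these were F2, F5, F10, F11, F12 and the prekallikrein gene Klkb1. F5, the cofactor of factor Xa, averaged between 82.3 and 97.0 RPKM in the 4 groups, and F10 between 171 and 211. The genes of the contact pathway, F11 and F12, averaged 20.995 to 27.9 and 187 to 202 RPKM. Of the inhibitors and fibrinolysis genes, 7 of 8 were never called. They included plasminogen, Plg, at group means of 745 to 863 RPKM, and the anticoagulant protease Proc at 235 to 256. Vtn averaged 1181 to 1395 RPKM and the alpha-2-antiplasmin gene Serpinf2 306 to 347. Heparin cofactor II, Serpind1, averaged 214 to 237 RPKM, the fibrinolysis inhibitor Cpb2 189 to 207, and Pros1 16.5 to 19.6. Of the complement genes, C3, C4b, the C3b-cleaving protease Cfi and the lectin pathway protease Masp2 were never called. C4b averaged 281 to 347 RPKM. Its near copy C4a fell with HFD, by 1.41 ± 0.36 on the log2 scale under control antibody (adjusted p = 0.00530), from 15.7 RPKM ± 9.67 to 4.66 ± 1.96, and reads shared with C4b are uncertain. Cfi averaged 248 to 276 RPKM and Masp2 136 to 140. A p that missed the threshold does not show that these levels were alike.

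Further coagulation and complement genes were taken from lists of the same pathways. Of 27 tested coagulation genes outside the 37, HFD raised 5 and lowered 4 under either antibody, against the shares of all genes given above. Anxa2, a receptor for plasminogen, rose by 2.24 ± 0.35 under control antibody (adjusted p = 9.22e-05), from 5.53 RPKM ± 0.493 to 32.9 ± 15.2. Hgfac, the protease that activates hepatocyte growth factor, rose by 0.41 ± 0.07 (adjusted p = 0.000428). The GCGR antibody on HFD raised Proz (0.28 ± 0.08, adjusted p = 0.0310) and lowered Tfpi2 (-0.53 ± 0.10, adjusted p = 0.00202). Their changes were 0.39 (adjusted p = 0.000170) and -0.64 (adjusted p = 0.000223) without libraries 19 and 20. On chow the antibody moved 0 of 27, with 3 at an unadjusted p under 0.05. Of all genes tested, 5.33% were called higher and 2.12% lower with the antibody on HFD, and 0.394% and 0.553% on chow.

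Of 32 tested complement genes outside the 37, HFD raised 5 and lowered 8 under control antibody. Under GCGR antibody it raised 7 and lowered 10. Over all genes tested, 11.6% were called higher and 18.3% lower under control antibody, and 13.2% and 16.6% under GCGR antibody. Cfd, the fat-cell protease that cleaves factor B, rose by 3.31 ± 0.57 under control antibody (adjusted p = 0.000236), from 1.43 RPKM ± 0.707 to 32.9 ± 28.1. Under GCGR antibody Fcna, a ficolin, fell by 1.06 ± 0.15 (adjusted p = 2.04e-05), and Cd59a, which blocks the membrane attack complex, rose by 0.51 ± 0.08 (adjusted p = 4.44e-05). These changes were -0.79 (adjusted p = 3.98e-05) and 0.45 (adjusted p = 0.000200) without libraries 19 and 20. The GCGR antibody on HFD raised 3, C1s1 and Colec12 among them, and lowered 4 (Cpn1, Fcna, C1rl and Colec10). Over all genes tested, 5.33% were called higher and 2.12% lower in that comparison. Of the 6 named, Fcna did not pass without libraries 19 and 20 (-0.34, adjusted p = 0.0534). Cpn1, the catalytic subunit of carboxypeptidase N, which trims anaphylatoxins, fell by 0.45 ± 0.05 (adjusted p = 1.41e-05) with the antibody, or by 0.44 (adjusted p = 1.97e-05) without those libraries. With HFD under control antibody it had risen by 0.35 ± 0.06 (adjusted p = 0.000130). On chow the antibody moved 0 of 32, with 9 at an unadjusted p under 0.05, against 0.394% of all genes called higher and 0.553% lower.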

How the data were processed

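Per the labels' protocols, strand-specific mRNA libraries of mouse liver were read for 33 cycles from 1 end on a HiSeq 2500. The submitters' processing notes name bcl2fastq 2.17, FastQC and the build GRCm38. The aligner and the counting method were not given in the sources used here. What the authors deposited is a single RPKM table of 24475 genes by 23 libraries, already scaled to gene length and library size. Depth in reads is not in it, so no counting interval was computed. Where the counting ignored strand, overlapping genes and near copies cannot be told apart.

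From these values log2(RPKM + 1) was tested with limma 3.58.1 in R 4.3.3, with 4 group means, a mean-variance trend and two-sided tests, over the 11939 genes that reached RPKM 0.5 in 5 or more libraries. P-values were adjusted by Benjamini-Hochberg over those genes, and an adjusted p under 0.05 is called. Changes are differences of log2(RPKM + 1) with SE; this scale understates those of low genes. All sample columns matched a label. Gene positions and upstream sequences are from RefSeq GRCm38.p6. Alternatives were a pseudocount of 0.1, no filter, median-ratio and upper-quartile scaling, no trend, array weights, the 2 groups alone, and leaving out each library, or libraries 19 and 20.

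The genes and lists were chosen with earlier results of these data known. Values by library are given for genes called in an antibody comparison or in the difference and for the 8 others with the smallest adjusted p in a diet comparison. Genes of the further lists are named up to 6 per antibody comparison and 4 per diet comparison by smallest adjusted p, besides near copies. Others, such as C6, C7, C8g and Colec12, were named after their values were seen. Some genes of these lists are not reported here.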

Additional observations from a re-analysis of the deposited data

Results flagged for a closer look

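In 148 sets of 1 gene in 1 group, 10 held a library far from the others, where chance gives about 1 in 20. Of these, 5 were library 19, the lowest of HFD with GCGR antibody: 53.4 RPKM for F13b (next 79.4), 1174 for Fga (next 1619), 923 for Fgg (next 1260), 120 for Hc (next 184) and 214 for Cfi (next 255). That library also had the highest T/NK cell and stellate cell marker sums of all, and their part in these values was not tested.

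The other 5 lay in other groups. C8b was highest in library 13 of HFD with control antibody, at 67.0 RPKM (next 47.9). C8g was lowest in library 3 of the chow controls, at 299 RPKM (next 328). Cfb was highest in library 6 of chow with GCGR antibody, at 599.6 RPKM (next 510). Mbl1 was lowest in library 5 of the chow controls, at 137 RPKM (next 165), and in library 11 of chow with GCGR antibody, at 149 RPKM (next 167).

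The antibody effect on C1ra differed between the diets by 0.56 on the log2 scale (limma's interaction term, adjusted p = 0.0439). That call was lost in 21 of 30 alternative analyses.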

How the results depend on the processing

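Of 35 calls of a gene in a comparison, 24 held under every alternative run for them and 0 reversed. Of 150 uncalled pairs of a gene and a comparison, 29 were called under at least 1 alternative and 48 changed sign under at least 1. The count of genes raised by the antibody on chow, 0, was 1 with only the chow groups fitted. The count raised by the antibody on HFD, 4, was 10 with array weights, 2 with only the HFD groups fitted (C1ra and C2), 10 without libraries 19 and 20, and from 3 to 11 when each library was left out, 11 being without library 19. The count with a positive difference of the antibody effects, 1, was 0 without the filter, 0 after median-ratio and 0 after upper-quartile scaling, 3 with array weights (C1ra, C2 and F13b), 2 without libraries 19 and 20 (C1ra and C8b), and from 0 to 1 when each library was left out; it was kept only without library 11, 13, 16, 19 or 20. The count raised by HFD under GCGR antibody, 2, was 7 with array weights, 7 without libraries 19 and 20, and from 2 to 7 when each library was left out (7 without library 19, 4 without library 20). The count lowered by HFD under control antibody, 16, ranged from 11 (median-ratio scaling) to 23 (array weights) over all alternatives. That under GCGR antibody, 10, ranged from 8 to 11. No alternative called a gene lower in an antibody comparison. The causes of these changes were not tested. Scaling moved the median of all genes by less than the 0.1 set for reporting, but calls of some genes with small changes depended on it. No paired analysis was possible because the groups share no sample numbers. Precision is limited by 5 or 6 libraries per group and unknown read depth.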

Other observations

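Some acute-phase genes, whose products the liver secretes in inflammation, rose on HFD. Of 19 genes, HFD raised 6 and lowered 0 under control antibody, and raised 9 and lowered 0 under GCGR antibody. Of all genes tested, 11.6% were called higher and 18.3% lower under control antibody, and 13.2% and 16.6% under GCGR antibody. The count raised under GCGR antibody was 11 without libraries 19 and 20 (10.6% of all genes tested without them). Lcn2, an iron-scavenging lipocalin, rose by 5.30 ± 0.72 on the log2 scale under GCGR antibody (adjusted p = 1.3e-05), from 2.83 RPKM ± 1.44 to 181 ± 168, and by 5.49 (adjusted p = 8.50e-05) without those libraries. The GCGR antibody raised 2 of the 19 on HFD, Cp and Orm3, where 5.33% of all genes tested were called higher and 2.12% lower. Orm3 did not pass without libraries 19 and 20 (1.42, adjusted p = 0.0924). Cp, the copper carrier ceruloplasmin, rose by 0.41 ± 0.08 (adjusted p = 0.00195), or by 0.36 (adjusted p = 0.00563) without them. On chow the antibody called 0 of 19, with 5 at an unadjusted p under 0.05, against 0.394% of all genes tested called higher and 0.553% lower.

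Of 26 liver transcription factors and interleukin signalling genes, the antibody on HFD raised 4 and lowered 0, with Nr1h4, Nfkbia and Il1r1 among the 4, against the 5.33% higher and 2.12% lower of all genes tested. The count raised was 3 without libraries 19 and 20 (7.06% of all genes tested without them), and Nfkbia did not pass (0.35, adjusted p = 0.0565). Nr1h4, the bile acid receptor FXR, rose from 52.5 RPKM ± 4.08 to 70.2 ± 4.12 (SD, n = 6 each), a log2 change of 0.41 ± 0.08 (adjusted p = 0.00195, and 0.00544 without those libraries), without overlap between the groups.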
